A study of Mus musculus with 4 samples.

Results

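The C/EBP factors Cebpa, Cebpb, Cebpd, Cebpe and Cebpg, the interferon regulatory factors Irf4 and Irf8, and the ID genes Id1, Id2 and Id3 were compared between a leukemic and a normal type of mouse erythroid cell during differentiation. They are 10 of the 19938 genes that had an array feature annotated to no other gene, and each was measured by 1 such feature. They were listed by name for their known part in myeloid cell fate, with no threshold on their values. MEL is an erythroleukemia line grown with serum and puromycin and exposed to estradiol for 48 hours. It was set against ES-EP, erythroid progenitors made from embryonic stem cells, which had been expanded with erythropoietin, IGF-1, dexamethasone and stem cell factor and then differentiated for 24 hours with erythropoietin, insulin and mifepristone, a glucocorticoid antagonist. Each group had 2 cultures, A and B, with 1 Affymetrix Mouse Gene 1.0 ST array per culture. The cells, inducer, medium and hours changed together, so none of these can be told apart from the others. The sources used here do not say what makes MEL cells respond to estradiol or whether the line was 1 clone. Undifferentiated cultures were not analysed here.

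C/EBP proteins are leucine zipper transcription factors that bind DNA as dimers and drive the maturation of granulocytes and monocytes. IRF4 and IRF8 bind composite DNA sites together with PU.1 or other partners and direct B cell, monocyte and dendritic cell fates. ID proteins have a helix-loop-helix without a DNA-binding region. They pair with E proteins, the dimer partners of TAL1 in red cell precursors, and keep them from DNA. The genes ID1, ID2 and ID3 are widely known targets of BMP signalling through SMAD proteins.

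Values are log2 signals made by RMA, and every difference is MEL minus ES-EP on that scale. Duplicate arrays correlated with r = 0.997 in MEL and r = 0.998 in ES-EP cells, against 0.948 to 0.949 between the groups, across features that are not independent replicates. Over all genes the median difference was -0.14 in the deposited values, and quantile normalization made it -0.02, centring on array medians -0.07 and cyclic loess 0.02. The lower quartile of the tested features was 4.46 and 4.38 in MEL cultures A and B, against 4.66 and 4.65 in ES-EP cultures. The upper quartile was 8.23 and 8.33 in MEL, against 8.25 and 8.26 in ES-EP cultures, and the median lay between 5.78 and 5.91. Low signals were thus lower on the MEL arrays as a whole. The part of this offset in the lower calls of dim genes was not tested. Of 9 erythroid marker genes with a feature of their own, 2 were higher and 7 lower, with 6 lower under each of the 3 other scalings. Over all genes 21.8% were higher and 36.9% lower in the deposited values. Gata1, the leading transcription factor of red cells, was at 11.92 and 11.96 in MEL cultures A and B, against 11.50 and 11.47 in ES-EP cultures A and B. The band 3 gene Slc4a1, a late erythroid marker, averaged 7.04 ± 0.08 in MEL cultures, against 12.48 ± 0.04 in ES-EP cultures (SD, n = 2 each). In such bulk RNA, fewer cells that use a gene and less RNA per cell cannot be told apart.

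Both the C/EBP and the ID genes held a pair that differed in opposite directions. Cebpa and Id2 were higher in MEL, Cebpb and Id1 were lower, and these 4 differences kept their direction and passed at an adjusted p under 0.05 under every alternative computed for them (limma, Benjamini-Hochberg over 28944 features). Irf4 was also called lower on the values as deposited, by a small amount at low signal. In all 5 of the 10 genes passed, where 58.6% of all genes did. Of these, 2 were higher, as 21.8% of all genes were, and 3 were lower, as 36.9% of all genes were. With a difference of at least 2-fold, 1 was higher, against 7.38% of all genes, and 1 was lower, against 4.93%. These shares of 10 genes were near those of the whole array. The median difference of the 10 genes was -0.10 in the deposited values, and quantile normalization made it 0.01, centring -0.04 and cyclic loess 0.05.

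**Figure D1:**
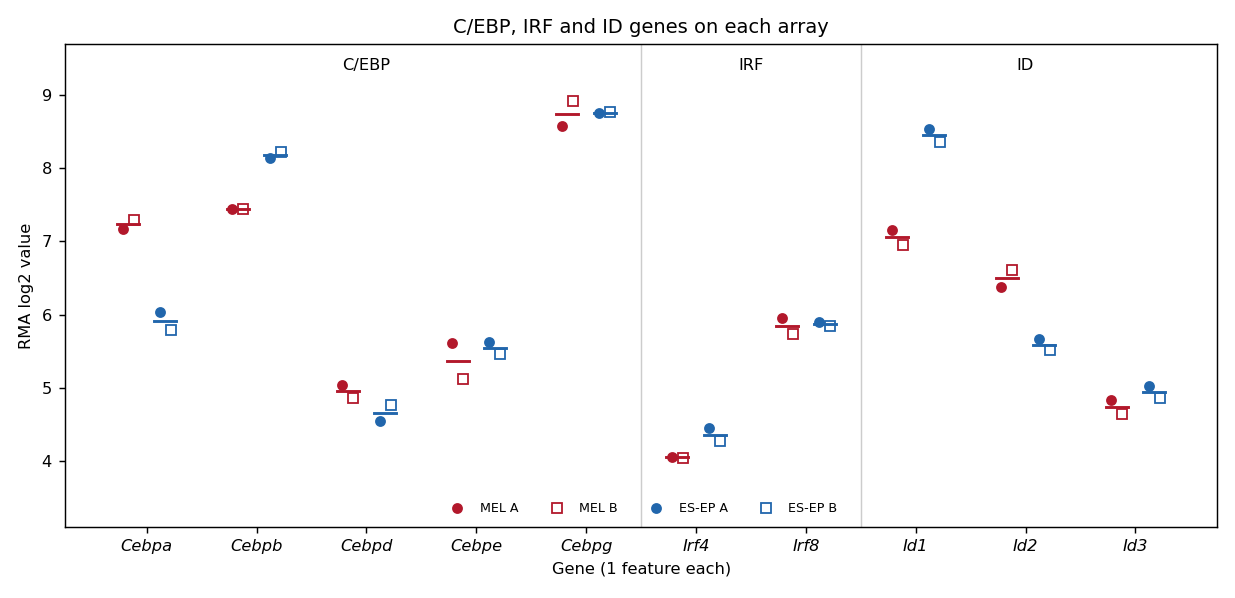
RMA log2 values (vertical axis) of the 10 genes on each array, with MEL (red) left of ES-EP (blue), filled circles for culture A, open squares for culture B, and short lines at the means. The duplicates lie apart from the other group for Cebpa, Cebpb, Id1 and Id2, and interleave for Cebpe, Cebpg and Irf8.

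Cebpa encodes C/EBP alpha, which commits progenitors to the granulocyte and monocyte lineage and restrains their division. It was at 7.17 and 7.30 in MEL cultures A and B, against 6.04 and 5.79 in ES-EP cultures A and B. Both MEL cultures were above both ES-EP cultures. The difference was 1.32 ± 0.11 (SE, n = 2 per group), which is 2.50-fold with a 95% interval of 2.09 to 2.99 (limma, adjusted p = 5.68e-05). Relative to the median of all genes it was 1.46.

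Cebpb encodes C/EBP beta, which acts in macrophages and in granulocyte production under stress. Its values were 7.45 and 7.44 in MEL cultures A and B, against 8.14 and 8.22 in ES-EP cultures A and B. The duplicates were close together in each group and the groups did not overlap. The difference was -0.74 ± 0.08 (SE, n = 2 per group), 1.66-fold lower in MEL with an interval of 1.46 to 1.90 (limma, adjusted p = 0.000266).

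The other C/EBP genes did not pass. Cebpd, an early response gene of the acute phase, was at 5.04 and 4.86 in MEL cultures A and B, against 4.55 and 4.76 in ES-EP cultures A and B. The groups did not overlap, but its difference of 0.30 ± 0.11 (SE, n = 2 per group) narrowly missed the threshold (limma, adjusted p = 0.0506). It passed after quantile normalization (0.51, adjusted p = 0.00821), centring (0.36, adjusted p = 0.0133) and cyclic loess (0.52, adjusted p = 0.00708). The centring fit gave each of the 10 genes the same SE of 0.13, so its p-values do not reflect the spread of a single gene. Without MEL culture A or ES-EP culture A the Cebpd difference was 0.21 or 0.19. Without MEL culture B or ES-EP culture B it was 0.39 or 0.40, so its size depended on the culture left out.

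Cebpe, which governs the last steps of granulocyte maturation and their secondary granules, was at 5.61 and 5.12 in MEL cultures A and B, against 5.63 and 5.46 in ES-EP cultures A and B. MEL culture A lay within the ES-EP values and culture B below them. The MEL duplicates differed by 0.49, the widest gap among the 10 genes, and the difference of -0.18 had a 95% interval of -0.55 to 0.20 (limma, adjusted p = 0.368). Without MEL culture A it was -0.43 and passed (adjusted p = 0.0237), and without MEL culture B it was 0.07.

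Cebpg lacks the activation domain of its relatives and can pair with ATF4. It was at 8.58 and 8.92 in MEL cultures A and B, against 8.76 and 8.76 in ES-EP cultures A and B. The MEL values lay on either side of the ES-EP pair. The difference of -0.01 had a 95% interval of -0.29 to 0.27 and did not pass (limma, adjusted p = 0.939).

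Of the IRF genes, Irf4, known for plasma cells and some dendritic cells, was dim on every array. Its values were 4.06 and 4.04 in MEL cultures A and B, against 4.45 and 4.27 in ES-EP cultures A and B, all below the lower quartile of their arrays. The difference was -0.31 ± 0.09 (SE, n = 2 per group, limma, adjusted p = 0.0244), and -0.17 relative to the median of all genes. The call was lost after quantile normalization (-0.09, adjusted p = 0.366), centring (-0.25, adjusted p = 0.105) and cyclic loess (-0.11, adjusted p = 0.321). It was also lost without MEL culture A, MEL culture B or ES-EP culture A (adjusted p = 0.0571, 0.0704 and 0.213).

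Irf8, which favours monocytes and dendritic cells over granulocytes, was at 5.95 and 5.73 in MEL cultures A and B, against 5.90 and 5.84 in ES-EP cultures A and B. The MEL values enclosed those of ES-EP. Its difference of -0.03 had a 95% interval of -0.26 to 0.21 and did not pass (limma, adjusted p = 0.826).

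**Figure D2:**
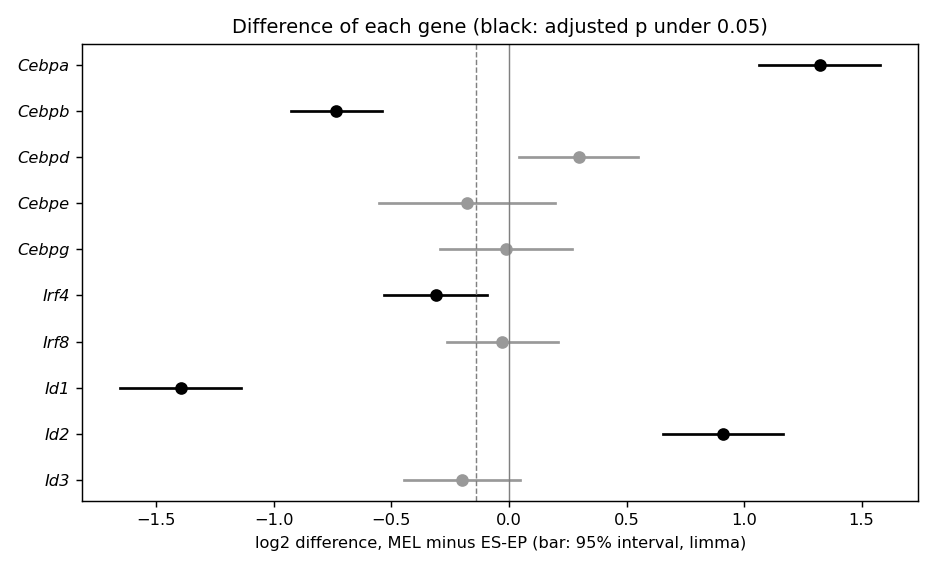
The log2 difference of MEL minus ES-EP (horizontal axis) for each of the 10 genes, with 95% intervals of the limma fit, in black where the adjusted p was under 0.05. The solid line marks 0 and the dashed line the median of all genes, -0.14. Cebpa and Id2 lie to the right of both lines, Cebpb and Id1 to the left.

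Among the ID genes, Id1, the member most often used as a readout of BMP signalling, had the greatest difference of the 10 genes. It was at 7.16 and 6.95 in MEL cultures A and B, against 8.54 and 8.36 in ES-EP cultures A and B. Both MEL values lay far below the lower ES-EP value. The difference was -1.40 ± 0.11 (SE, n = 2 per group), 2.63-fold lower in MEL with an interval of 2.20 to 3.14 (limma, adjusted p = 4.22e-05).

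Id2, which is required for natural killer and other innate lymphoid cells, differed the other way. It was at 6.38 and 6.61 in MEL cultures A and B, against 5.66 and 5.51 in ES-EP cultures A and B, with no overlap. The difference was 0.91 ± 0.11 (SE, n = 2 per group), 1.88-fold higher with an interval of 1.58 to 2.24 (limma, adjusted p = 0.000358).

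Id3, which acts in lymphocyte development, was dim, at 4.83 and 4.64 in MEL cultures A and B, against 5.03 and 4.85 in ES-EP cultures A and B. The ES-EP values were slightly above those of MEL, and the difference of -0.20 had a 95% interval of -0.45 to 0.04 (limma, adjusted p = 0.139). Quantile normalization and cyclic loess each made it 0.02. The remaining ID gene, Id4, averaged 5.74 ± 0.11 in MEL cultures, against 6.38 ± 0.08 in ES-EP cultures (SD, n = 2 each), 1.55-fold lower in MEL (limma, adjusted p = 0.00112).

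Counted without a test, 7 of the 10 genes had groups that did not overlap, where 80.2% of all genes did. An exact permutation test of 4 arrays has 3 distinct splits, and its two-sided p for these 7 genes was 0.333, the smallest this design allows. The calls therefore rest on the variance that limma shares across features. Cebpd, Cebpe, Irf4, Irf8 and Id3, 5 of the 10 genes, had a mean signal below the median of all tested features. In ES-EP cultures A and B, Cebpa lay above 52.2% and 48.1% of the tested features and Id2 above 45.5% and 42.9%. The lower side of these differences was thus near or below the array median.

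**Figure D3:**
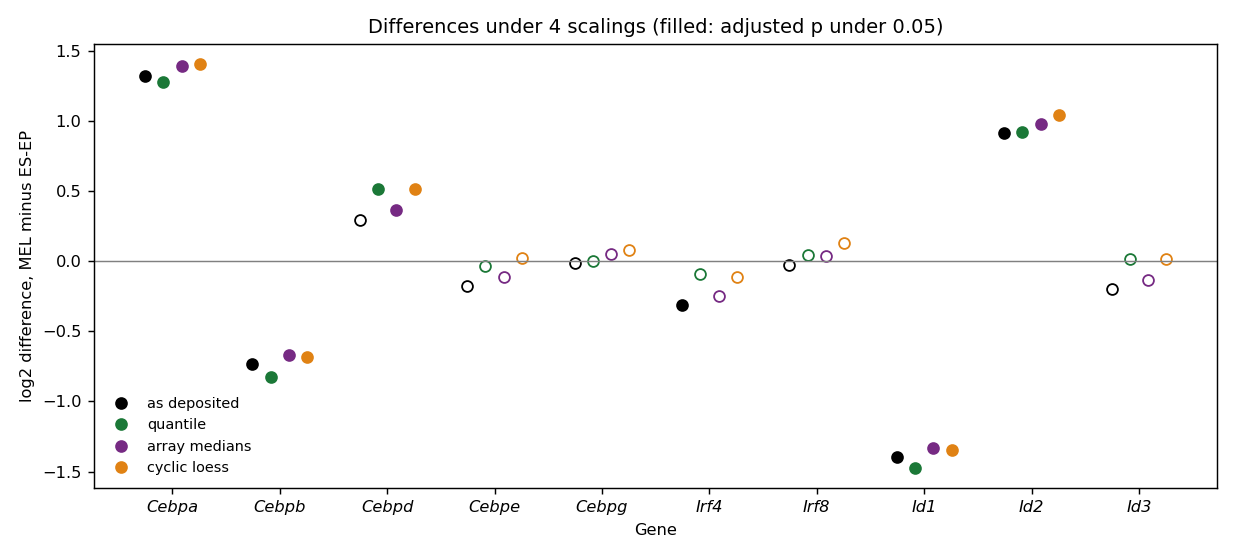
The log2 difference of MEL minus ES-EP (vertical axis) of the 10 genes on the values as deposited and after 3 other scalings, filled where the adjusted p was under 0.05. Cebpa, Cebpb, Id1 and Id2 are filled throughout, Cebpd is filled after the 3 other scalings, and Irf4 is filled only as deposited.

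Promoter sequences are shown for the differing genes Cebpa, Cebpb and Id2, to set the opposite directions beside the DNA at their start sites. The RefSeq promoter table (GRCm38.p6) held 7 of the 10 genes, and Id1, Cebpd and Cebpe had no entry. Each run is the 250 bases before the annotated start, 5′ to 3′ on the gene's strand. Cebpa lies at chr7:35119043-35119292 on the plus strand, Cebpb at chr2:167688665-167688914 on the plus strand and Id2 at chr12:25096093-25096342 on the minus strand. Capitals mark matches on either strand to 7 motifs. Sites of C/EBP dimers were searched as TTGCNNAA. E proteins bind the E-box, searched as CANNTG. ATF and CREB factors bind sites that hold TGACG. The nuclear factor NF-Y binds the box CCAAT. The core promoter box was searched as TATAAA. Factors of the GATA family bind sites such as AGATAA. PU.1 binds sites around the core GAGGAA.
Cebpa: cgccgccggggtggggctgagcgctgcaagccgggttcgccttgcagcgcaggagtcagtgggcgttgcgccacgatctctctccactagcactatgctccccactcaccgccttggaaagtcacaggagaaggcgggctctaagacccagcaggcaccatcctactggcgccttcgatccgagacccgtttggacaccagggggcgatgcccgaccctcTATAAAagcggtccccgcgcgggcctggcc
Cebpb: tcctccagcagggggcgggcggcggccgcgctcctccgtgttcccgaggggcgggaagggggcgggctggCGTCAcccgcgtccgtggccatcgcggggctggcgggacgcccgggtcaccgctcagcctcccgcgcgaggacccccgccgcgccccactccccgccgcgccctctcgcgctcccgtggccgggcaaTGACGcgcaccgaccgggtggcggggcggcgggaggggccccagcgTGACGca
Id2: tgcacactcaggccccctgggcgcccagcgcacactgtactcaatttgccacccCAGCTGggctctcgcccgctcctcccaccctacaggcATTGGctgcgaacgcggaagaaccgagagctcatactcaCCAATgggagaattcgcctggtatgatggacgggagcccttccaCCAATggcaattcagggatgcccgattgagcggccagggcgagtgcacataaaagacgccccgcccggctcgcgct

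The 3 promoters shared none of these motifs. That of Cebpa held TATAAA at 30 to 25 bases before the start, a motif present in 12.4% of 32851 promoters cut to the same length. That of Cebpb held 3 matches to TGACG, the nearest at 7 to 3 bases before the start, and 17.8% of all promoters held at least 1. That of Id2 held 3 CCAAT boxes and 1 E-box, which occurred in 33.8% and 66.2% of all promoters. The C/EBP motif TTGCNNAA occurred in 9.56% of all promoters, the GATA site in 9.99% and the PU.1 core in 23.3%, and none had a match in these 3 windows. The Cebpb window was 81.6% G and C, the Cebpa window 66.4% and the Id2 window 62.8%, against a median of 52.4%. No 2 matches overlapped, and a match of letters is not a measured binding site.

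Genes around the C/EBP factors differed in both directions. Of 14 related leucine zipper and Tribbles genes, 5 were higher and 6 lower, with a median of -0.17 (all genes, -0.14). Over all genes 21.8% were higher and 36.9% lower. Dbp, a clock-controlled factor, was at 8.23 and 8.19 in MEL cultures, against 6.99 and 7.03 in ES-EP cultures, 2.30-fold higher (limma, adjusted p = 2.07e-05). Trib3, a pseudokinase induced by ATF4 and CHOP, was at 8.74 and 8.97 in MEL, against 10.18 and 10.15 in ES-EP cells, 2.48-fold lower (limma, adjusted p = 4.08e-05). Ddit3, which encodes CHOP, a C/EBP relative that blocks DNA binding of its partners, averaged 7.74 ± 0.08 in MEL cultures, against 8.99 ± 0.11 in ES-EP cultures (SD, n = 2 each), 2.39-fold lower (limma, adjusted p = 3.44e-05).

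Picked from that list after their values were seen, which sets their common direction, the stress factors Ddit3, Atf3, Atf4, Atf5 and Trib3 were all lower, with differences of -1.31 to -0.67, and stayed so under each scaling and without each culture. Cebpg, the partner of ATF4, did not pass beside them. The 3 PAR zipper factors Dbp, Tef and Hlf were all higher, by 0.35 to 1.20, and Tef missed the threshold without ES-EP culture A (0.33, limma, adjusted p = 0.0748). Trib1 and Trib2, which promote the breakdown of C/EBP alpha, were also higher, by 0.49 and 0.59 on the log2 scale.

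Genes known as C/EBP targets in granulocytes and monocytes did not move as one group. Of 23, 1 was higher and 10 were lower, where 21.8% of all genes were higher and 36.9% lower. The median of the 23 was -0.24 as deposited, and quantile normalization made it -0.035, centring -0.17 and cyclic loess -0.019. After quantile normalization and after cyclic loess the counts were 3 higher and 7 lower. Prtn3, a protease of primary granules, was at 7.50 and 7.34 in MEL cultures, against 5.58 and 5.66 in ES-EP cultures, 3.48-fold higher (limma, adjusted p = 5.29e-06). Ltf, the secondary granule protein lactoferrin and a target of C/EBP epsilon, was at 4.32 and 4.27 in MEL, against 5.80 and 5.79 in ES-EP cells, 2.84-fold lower (limma, adjusted p = 6.74e-06). With features below the median signal left out, 3 of the 23 were tested and 1 was lower, so 9 of the 10 lower calls, Ltf among them, were on dim features. Ltf was below the lower quartile on both MEL arrays.

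**Figure D4:**
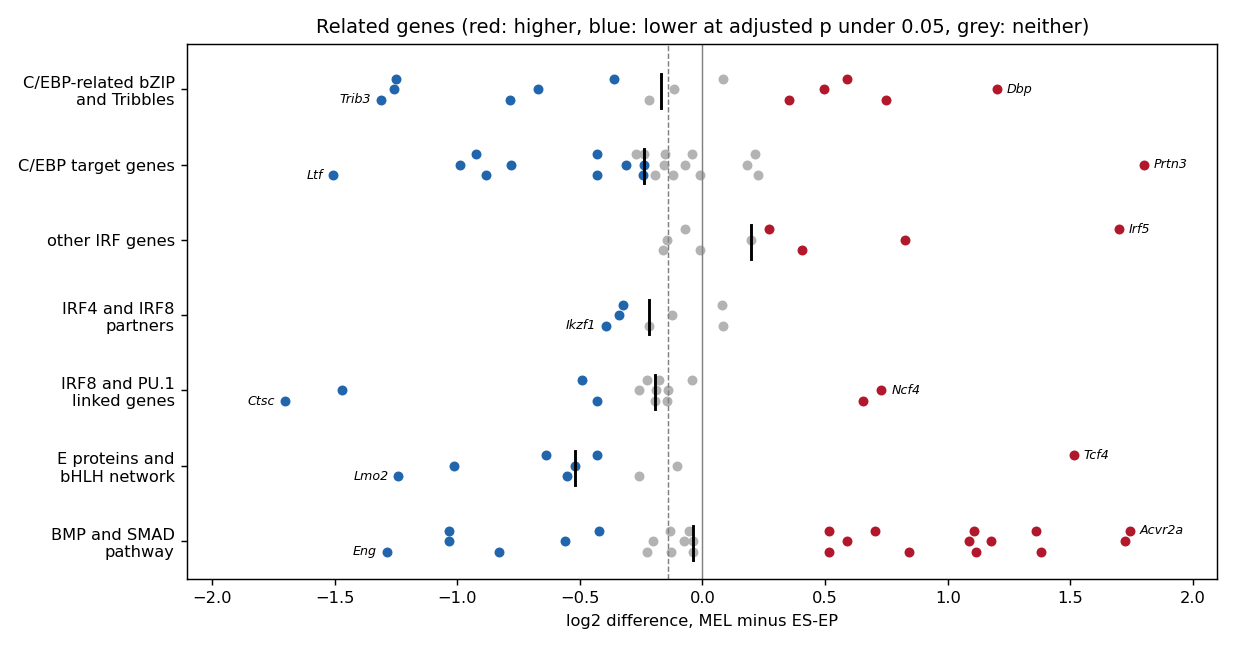
The log2 difference of MEL minus ES-EP (horizontal axis) of each gene in 7 lists related to the C/EBP, IRF and ID factors, red where higher and blue where lower at an adjusted p under 0.05. Black bars are list medians, the solid line marks 0 and the dashed line the median of all genes, -0.14. Named are the genes with the greatest passing rise and fall of each list, such as Prtn3 at 1.80 and Ctsc at -1.70.

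The list of other IRF genes and IRF2-binding protein genes had 4 higher and 0 lower of 9 measured, with a median of 0.20, where 21.8% of all genes were higher. Of its 6 IRF genes 2 were higher, and of its 3 genes for IRF2-binding proteins, which are not IRFs, also 2. After quantile normalization the counts were 4 and 1. Irf5, which acts in inflammatory macrophages, was at 7.24 and 7.17 in MEL cultures, against 5.58 and 5.44 in ES-EP cultures, 3.24-fold higher (limma, adjusted p = 6.18e-06). The other 3 higher genes, named after their values were seen, were the interferon-induced factor Irf7 at 1.77-fold, the corepressor gene Irf2bp1 at 1.32-fold and Irf2bpl at 1.20-fold. Irf2bpl missed the threshold with quantile normalization (0.12) and without MEL culture A (0.21), ES-EP culture A (0.33) or ES-EP culture B (0.21). The brighter of 2 Irf1 features differed by -0.15 and did not pass (limma, adjusted p = 0.337), while its other feature differed by 1.27, so the direction of Irf1 is not settled.

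The DNA-binding partners of IRF4 and IRF8 had 0 higher and 3 lower of 7, with a median of -0.22. Among all genes 21.8% were higher and 36.9% lower. The counts were 1 and 1 after quantile normalization or cyclic loess and 0 and 1 after centring. Spi1, which encodes PU.1, was at 8.56 and 8.66 in MEL cultures, against 8.75 and 8.72 in ES-EP cultures, a difference of -0.12 that did not pass (limma, adjusted p = 0.243). Ikzf1, the Ikaros gene, was at 8.71 and 8.94 in MEL cultures, against 9.18 and 9.27 in ES-EP cultures, 1.31-fold lower (limma, adjusted p = 0.0144). Without ES-EP culture B its difference of -0.35 did not pass (limma, adjusted p = 0.0793).

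Of 14 monocyte and dendritic genes tied to IRF8 and PU.1, 2 were higher and 4 lower under all 4 scalings. Their median was -0.19 as deposited, and quantile normalization made it -0.016, centring -0.13 and cyclic loess -0.009. The shares of all genes were 21.8% higher and 36.9% lower. Ctsc, the peptidase that activates granule proteases, was at 9.80 and 9.97 in MEL, against 11.56 and 11.62 in ES-EP cells, 3.25-fold lower (limma, adjusted p = 7.24e-06). Ncf4, a subunit of the phagocyte oxidase, was at 6.55 and 6.31 in MEL, against 5.65 and 5.75 in ES-EP cells, 1.66-fold higher (limma, adjusted p = 0.000953).

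Of 9 genes of the ID and E protein network, 1 was higher and 6 were lower under all 4 scalings. As deposited, 21.8% of all genes were higher and 36.9% lower. The median of the 9 was -0.52 as deposited, and quantile normalization made it -0.29, centring -0.45 and cyclic loess -0.32. Of the 3 E protein genes, which encode the partners of ID proteins, 1 was higher, 1 was lower and Tcf12 did not pass (-0.26, limma, adjusted p = 0.0595). The other lower genes were the bHLH genes Tal1, Tal2 and Lyl1, the ID gene Id4 and Lmo2, which encodes a LIM protein. Of these Tal2 was dim, at 4.27 and 4.16 in MEL cultures, below the lower quartile of both arrays, against 4.84 and 4.64 in ES-EP cultures. Tcf4, the E protein E2-2, was the 1 higher gene, at 8.12 and 8.31 in MEL cultures, against 6.66 and 6.74 in ES-EP cultures, 2.85-fold higher (limma, adjusted p = 1.56e-05). The E2A gene Tcf3 averaged 9.63 ± 0.05 in MEL cultures, against 10.06 ± 0.04 in ES-EP cultures (SD, n = 2 each), 1.35-fold lower (limma, adjusted p = 0.00388). Lmo2, the bridging protein of the TAL1 complex, was 2.36-fold lower (limma, adjusted p = 1.82e-05).

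Genes of the BMP and SMAD pathway, a list that also holds TGF-beta genes and BMP targets, differed in both directions. Of 27 genes 13 were higher and 6 lower under all 4 scalings, where 21.8% of all genes were higher and 36.9% lower as deposited. The median of -0.04 turned positive after the 3 other scalings, at 0.16, 0.03 and 0.15. The activin receptor gene Acvr2a was at 7.59 and 7.94 in MEL cultures, against 6.12 and 5.93 in ES-EP cultures, 3.35-fold higher (limma, adjusted p = 3.77e-05). Eng, an accessory receptor, was at 5.02 and 4.84 in MEL, against 6.02 and 6.41 in ES-EP cells, 2.44-fold lower (limma, adjusted p = 0.000211).

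Roles were assigned after the values were seen, so a uniform direction within a role is a description. Of 10 receptor genes 3 were higher and 4 lower, and of 6 ligand genes, counting the antagonist Nog, 1 was higher and 1 lower. The 7 negative regulators other than Nog (Smad6, Smad7, Bambi, Smurf1, Smurf2, Ski and Skil) were higher in MEL under every alternative, by 0.52 to 1.38 as deposited. Nog, placed with the ligands, is a negative regulator too. It differed by -0.05 and did not pass (limma, adjusted p = 0.597). Smad6, which blocks BMP receptors and is itself a BMP target like Id1, was at 6.91 and 7.03 in MEL cultures, against 5.88 and 5.83 in ES-EP cultures, 2.17-fold higher (limma, adjusted p = 4.26e-05). Id1 and Smad6 thus differed in opposite directions. Of the 4 signal-carrying SMADs, also picked out after their values were seen, Smad5 was 3.30-fold and Smad4 2.15-fold higher, Smad1 was 2.05-fold lower, and Smad9 did not pass.

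**Figure D5:**
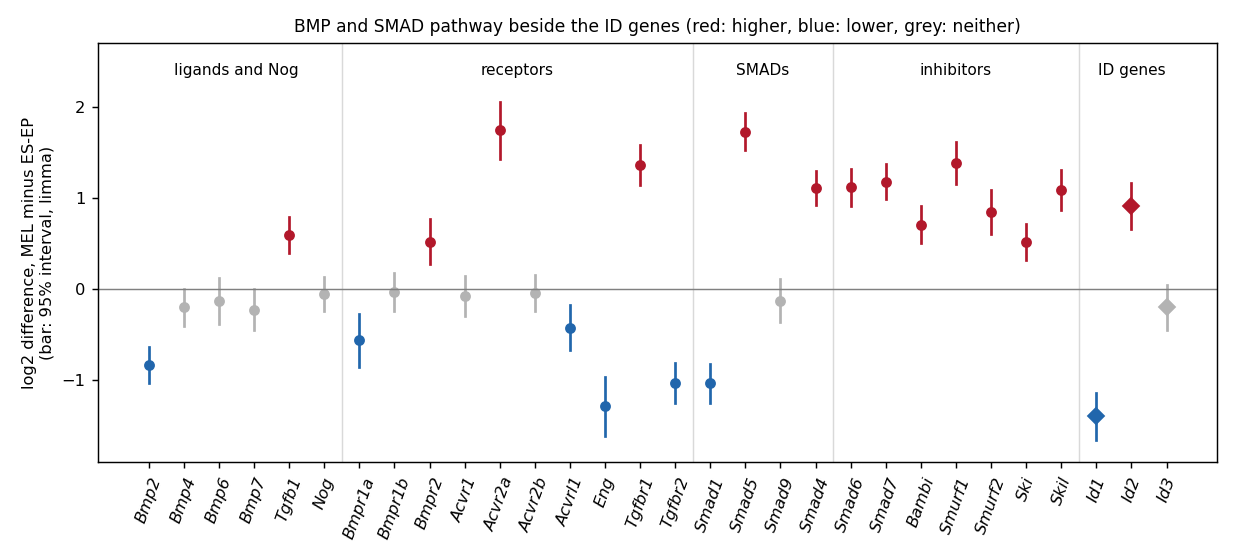
The log2 difference of MEL minus ES-EP (vertical axis) with 95% intervals of the limma fit for the BMP and SMAD genes by role (circles) and the ID genes (diamonds), red where higher, blue where lower and grey where the adjusted p was 0.05 or more. The 7 inhibitors other than Nog, which is drawn with the ligands, lie above 0. Smad5 at 1.725, Smad4 at 1.107 and Id2 at 0.91 also lie above 0, while Id1 at -1.40 and Smad1 at -1.03 lie below.

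Markers of myeloid and lymphoid cells were mostly dim beside these results. In the deposited values 21.8% of all genes were higher and 36.9% lower. Of 10 granulocyte markers, all of them also on the C/EBP target list, 1 was higher and 5 were lower. Under each of the 3 other scalings 3 of them were lower. Their summed linear signals were 425 and 385 in MEL cultures, against 343 and 360 in ES-EP cultures. Prtn3 set that order, and without it the other 9 summed to 244 and 222 in MEL cultures, against 295 and 310 in ES-EP cultures. Of 8 monocyte and macrophage markers 1 was higher and 3 lower, with sums of 255 and 299 in MEL, against 352 and 347 in ES-EP cells. Of 7 dendritic markers 0 were higher and 3 lower, with sums of 266 and 228 in MEL, against 358 and 371 in ES-EP cells. After quantile normalization or cyclic loess 1 of them was lower. Of 6 B and plasma cell markers 0 were higher and 1 lower, with sums of 158 and 136 in MEL, against 166 and 170 in ES-EP cells. The 9 erythroid markers summed to 20600 and 21390 in MEL cultures, against 35970 and 36370 in ES-EP cultures. Named after their values were seen, the higher ones of the myeloid and lymphoid markers were Prtn3 and the Fc receptor gene Fcgr1. The lower ones in the deposited values were Mpo, Ctsg, Ltf, Lcn2 and Camp of granulocytes and Csf1r, Cd68 and Cd14 of monocytes. Those of the dendritic and B cell lists were Itgax, Xcr1 and Zbtb46 of dendritic cells and Cd79b of B cells. With dim features left out, 1 marker each of granulocytes, monocytes and dendritic cells was tested. No marker is listed at 0, as RMA gives none, and the part of other cell types in the differences was not tested.

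Likeness was measured as the Euclidean distance between log2 values centred on each gene's own mean over the 4 arrays. The genes nearest to Cebpa were Efnb1 (distance 0.05, difference 1.28), Ccdc126 (0.06, 1.27) and Ddx58 (0.06, 1.30). Those nearest to Id1 were Foxa1 (0.08, -1.42), Tpd52l1 (0.08, -1.43) and Aqp8 (0.09, -1.34). With 2 groups of 2 arrays, a small distance means little more than a difference of like size.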

How the data were processed

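RNA of 4 cultures was measured on 1 array each. Per the labels, the authors made the deposited log2 values by RMA with the GeneSpring GX software, and their range fits that scale. The sources used here name neither its version nor which arrays it normalized together. RMA makes array distributions alike, hides changes in total RNA and compresses folds at low signal. Without detection calls, low signal and background cannot be told apart.

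Of 35557 features, 6613 array controls were left out and 28944 tested. The platform annotation, updated through Entrez identifiers with RefSeq (GRCm38.p6, 21698 features matched), gave 21789 features 1 symbol, 1621 several and 5534 none. The brightest feature represented a gene.

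limma 3.58.1 in R 4.3.3 (lmFit, eBayes) compared the groups, with 2 residual and 5.15 prior degrees of freedom on the values as deposited. Benjamini-Hochberg adjustment was made over all tested features, with a threshold of 0.05. Nothing in the labels says that the cultures were grown apart in time, so p-values measure only the spread between these cultures, and the number of arrays limits the precision. The procedure was also run on simulated data, with independent values and few changed features. That run cannot show how it behaves here, where 58.6% of genes were called.

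The 10 genes, 7 related lists and 5 marker lists (135 genes, 127 measured) were chosen with earlier results of these data known. Named are the 10 genes, the greatest passing rise and fall per related list, Spi1, Gata1, Ddit3, Tcf3, Id4 and Smad6, and the 3 genes most like Cebpa and Id1. All other genes named were chosen after their values were seen. Alternatives were 3 scalings, 2 variance priors, a filter on dim features, 1 symbol features only, the mean of a gene's features, the replicate letter as a block, and each culture left out.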

Additional observations from a re-analysis of the deposited data

How the results depend on the processing

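The differences of Cebpa, Cebpb, Id1 and Id2 kept their direction and passed under all 13 alternatives. Without each culture in turn Cebpa ran from 1.20 to 1.45, Cebpb from -0.77 to -0.70, Id1 from -1.50 to -1.29 and Id2 from 0.79 to 1.03. Cebpd passed after quantile normalization (0.51), centring (0.36) and cyclic loess (0.52). At an unchanged 0.30 it also passed with 1 symbol features only (limma, adjusted p = 0.0406) and with the mean of a gene's features (adjusted p = 0.0487). Calls after centring rest on 1 SE of 0.13 common to the 10 genes. For Cebpd the leave-out values were as follows. Without each culture it ran from 0.19 to 0.40. Irf4 did not pass with quantile normalization at -0.094, with centring at -0.25 or with cyclic loess at -0.11, and ran from -0.40 to -0.22 without each culture. For Cebpe the range was -0.43 to 0.068. The members at least 2-fold higher were 2 after cyclic loess, with Id2 at 1.04, and 1 to 2 without each culture. With dim features left out, fewer genes were tested, and 20 genes of the related lists were lower against 35. The mean of both Irf1 features was 0.56 and passed, against -0.15 for the brighter. The cause of the other shifts was not tested. A fit without a culture assumes that the lone culture left varies like the other group. In the replicate block fit (letters A and B) the counts stayed at 2 higher and 3 lower. The letters were not taken as pairs, since nothing in the labels says they mark shared cultures, and the deviations of same-lettered arrays correlated with r = 0.11 across features. Leaving out dim features dropped 5 of the 10 genes, Cebpd, Cebpe, Irf4, Irf8 and Id3, and with no detection calls their dimness limits what their values can show.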
